A study of Homo sapiens with 38 samples.

Results

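The genes described here are 10 feedback inhibitors of mitogen-activated protein kinase (MAPK) signalling: the dual-specificity phosphatases DUSP1, DUSP2, DUSP4, DUSP5, DUSP6 and DUSP10, the Sprouty genes SPRY1 and SPRY2, and the Sprouty-related genes SPRED1 and SPRED2. They were chosen by name, out of 20050 protein-coding gene records, with earlier results of these data known. A member's window was its RefSeq record and the 50 kb on either side of it. Every line of the GATA3, BHLHE40 and H3K27ac peak lists that overlapped a member's window by at least 1 bp was taken. That gave 66 GATA3 regions, 58 BHLHE40 regions and 122 H3K27ac regions, each region being 1 line of a list. A gene record is the span from the lowest to the highest coordinate of a gene on GRCh38.p14.

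MAPK cascades pass signals from the cell surface to the nucleus through chains of kinases, and in T cells the ERK branch is switched on by the antigen receptor through RAS. Dual-specificity phosphatases remove the phosphates from the activation loop of ERK, JNK or p38 kinases, and many of their genes are themselves switched on by the kinases they inactivate. Sprouty and SPRED proteins act higher up, where they restrain the step from receptor and RAS to RAF. Together they form the negative feedback that ends or limits a MAPK response.

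The lists came from Jurkat, a long-established line of human T-ALL (T-cell acute leukaemia) cells that carried a control lentivirus (Ctrl_LV) and had been treated with the phorbol ester PMA (50 ng/ml) together with the calcium ionophore ionomycin (500 ng/ml). PMA activates protein kinase C and RAS exchange factors and so drives ERK directly, and ionomycin raises cytosolic calcium. The sample labels give 5 hours of stimulation and the treatment protocol 2 hours, which was not resolved. Chromatin immunoprecipitation and sequencing (ChIP-seq) was done with antibodies against GATA3, a T-cell transcription factor that binds GATA sequences, against BHLHE40, a stimulus-induced E-box repressor, and against H3K27ac, an acetylated histone found at active promoters and enhancers. Each antibody had 2 samples and a single list that stands for both, so there is no value per sample, no spread between replicates and no test in what follows, and no resting cells or edited cells were compared. These 3 groups are part of 19 groups of 2 samples in the series, and the other 16 groups were not analysed here. Whether the 2 samples of a group came from separate cultures is not stated.

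The lists differ in kind. The factor lists held 29009 GATA3 and 26205 BHLHE40 regions that repeated between samples at an irreproducible discovery rate (IDR) of 0.05, and the H3K27ac list held 113570 regions from pooled samples, many of them weak. The signal value of a region is the authors' enrichment value for it and is read only within its own list. The GATA3 list had a median signal value of 11.2, the BHLHE40 list 9.35 and the H3K27ac list 3.31. An H3K27ac region with a −log10 q of at least 5 is called strong below, and 28551 regions were. The word goes by q and not by signal value, and some strong regions had signal values below the list median. The lowest case in the member windows, at DUSP2, had a signal value of 1.76 (rank 113423 of 113570) and a −log10 q of 6.67. As a check of the cell type, 5 of 5 T-cell marker genes with a listed start (LCK, CD2, ZAP70, CD28 and CD3D) had a strong H3K27ac region within 1 kb of it, against 0 of 5 markers of B, myeloid and erythroid cells (CD79A, PAX5, CD14, CSF1R and ALAS2). Over all 15842 protein-coding genes with a listed start the share was 51.3%. CD79A had an H3K27ac region at its start that was not strong. The other 3 T-cell and 4 non-T-cell markers have no start in the table used.

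Most members sat among many factor regions. A GATA3 region lay in the window of 9 of the 10 members, where 76.1% of all protein-coding genes had one, and a BHLHE40 region also in 9, where 80% of all genes had one. SPRY2 was the exception for both factors, and the same 9 members had both (70.1% of all genes). H3K27ac was listed in all 10 windows (92.6% of all genes) and strong H3K27ac in 9 (79.5% of all genes). A share of 9 in 10 is near the background, so presence alone says little about these genes, and the number of regions differed more.

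**Figure D1:**
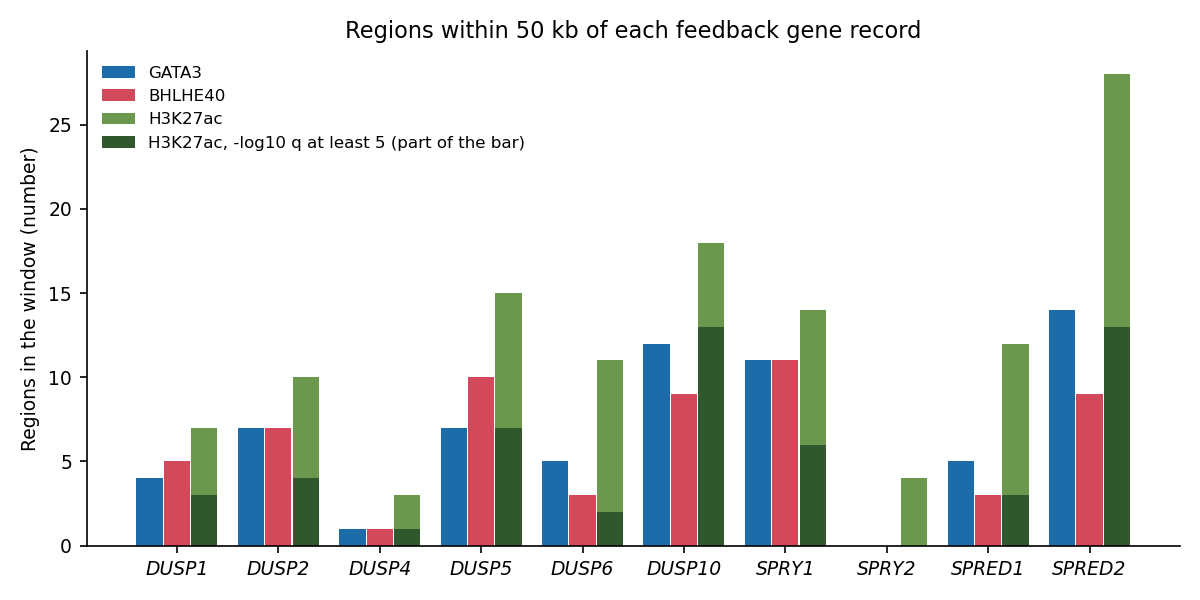
Number of GATA3, BHLHE40 and H3K27ac regions (y axis) in the window of each member gene (x axis), with strong H3K27ac regions as the dark part of the H3K27ac bar. SPRED2 has the most GATA3 regions, 14, and SPRY2 has no region of either factor.

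Windows differ in length because records do, from 2.27 kb for DUSP2 to 125 kb for SPRED2, so densities are given per 100 kb of window. The median GATA3 density over the 10 members was 5.46 regions, and over all protein-coding genes 0.992. SPRY1 (10.3), DUSP10 (8.53), DUSP2 (6.84), SPRED2 (6.21), DUSP5 (6.16), DUSP6 (4.75) and DUSP1 (3.88) lay at or above the 90th percentile of all genes, 3.70, which 10% of all genes reached. SPRED1 had 2.45, DUSP4 0.850 and SPRY2 none. For BHLHE40 the median density was 4.42 over the members and 1.62 over all genes. The 4 members at or above the 90th percentile of 4.97 (10% of all genes) were SPRY1 (10.3), DUSP5 (8.80), DUSP2 (6.84) and DUSP10 (6.40). For H3K27ac the medians were closer, 10.1 and 5.91, and DUSP5 (13.2), SPRY1 (13.1) and DUSP10 (12.8) were the 3 at or above the 90th percentile of 12.4 (10% of all genes). These 3 genes were thus the ones dense in all 3 lists, and DUSP4 and SPRY2 were below the median of all genes in all 3. Of the summits, 57 of the 66 GATA3 and 52 of the 58 BHLHE40 ones were nearer to the member than to any other protein-coding record. The rule largely sets this, since regions were taken for closeness to the member and most windows held no other protein-coding record. The same share over the windows of all genes was not computed.

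**Figure D2:**
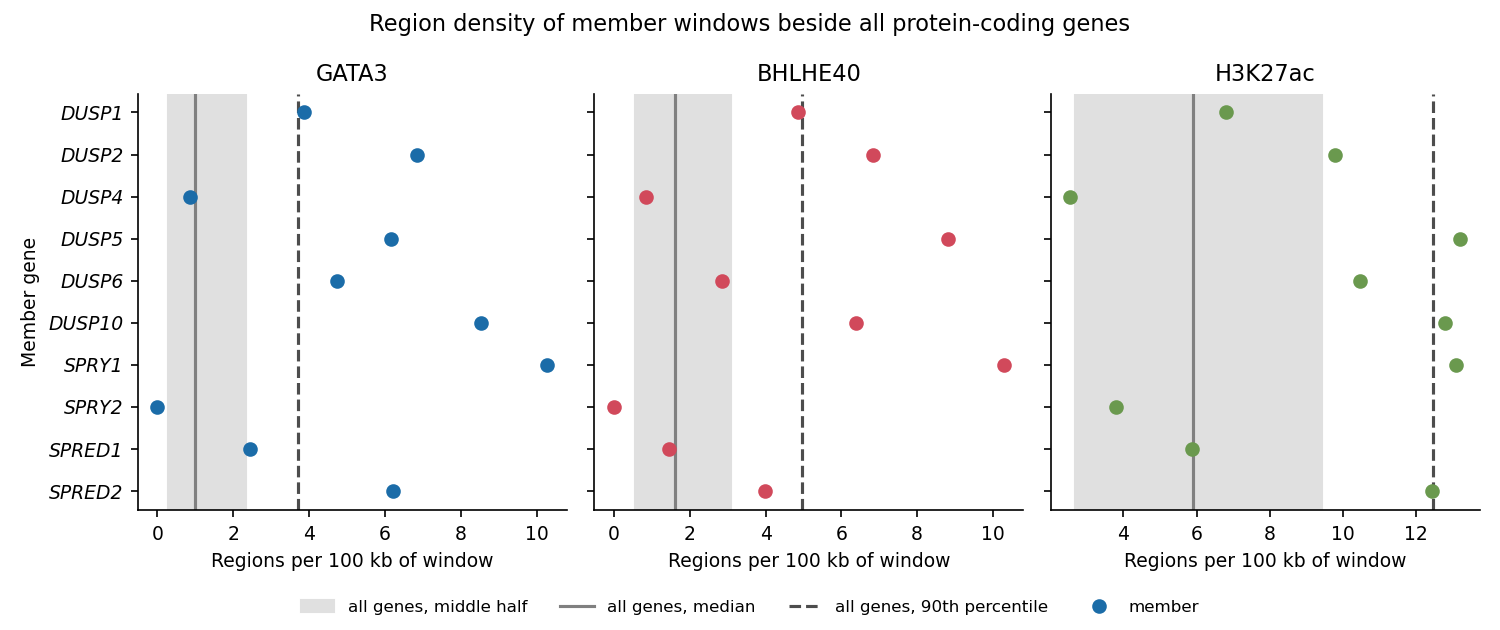
Regions per 100 kb of window (x axis) for each member gene (y axis) in the 3 lists, beside the quartile range, the median and the 90th percentile of all 20050 protein-coding genes. SPRY1, DUSP5 and DUSP10 lie past the 90th percentile in every list and DUSP4 and SPRY2 below the median in every list.

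The first group of members are the phosphatases that act in the nucleus. DUSP1 (chromosome 5, 172768096 to 172771195), an immediate-early gene whose protein inactivates ERK, JNK and p38, had 4 GATA3, 5 BHLHE40 and 7 H3K27ac regions and no other protein-coding record in its window. Its start carried BHLHE40 and H3K27ac but no GATA3 region. The BHLHE40 region there (172769480 to 172771775, signal value 16.5) peaked 34 bp before the start, and the strong H3K27ac region had a signal value of 7.23. The strongest BHLHE40 region (signal value 20.5) and the strongest H3K27ac region (10.9) lay together beyond the far end of the gene, with summits 5.73 kb and 5.98 kb from the start, and a GATA3 region of 14.2 overlapped both. The strongest GATA3 regions, of 31.9 and 31.8, lay 11.2 kb and 21.9 kb before the start, each overlapped by a BHLHE40 region, with summits 4 bp and 7 bp away. GATA3 at DUSP1 was therefore listed away from the promoter and BHLHE40 both at it and away from it.

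DUSP2 (chromosome 2, 96143169 to 96145440), the phosphatase first described in activated T cells as PAC-1, had the strongest BHLHE40 region of the 10 genes. It spanned 96138664 to 96147470, 8807 bp wide, and covered the whole record and the start. Its signal value of 103 ranked 42 of 26205, and only 0.334% of protein-coding genes had as strong a BHLHE40 region in their window. Its summit lay 2.70 kb from the start, 432 bp beyond the far end of the record. BHLHE40 regions of at least 5 kb were rare, 95 in the whole list, and by width this one ranked 34. GATA3 was listed as several separate regions over the same span: 4 of the 7 GATA3 regions of DUSP2 overlapped this single BHLHE40 region, with signal values of 7.26, 6.69, 8.72 and 35.8. The GATA3 region over the start itself (96144859 to 96146198) had a summit 18 bp inside the gene and was the 8.72 one. The edges of the 6.69 and 35.8 regions also came within 1 kb of the start, with summits 3.25 kb after it and 1.75 kb before it. H3K27ac was strong just before the start (96145668 to 96147124, signal value 7.09, −log10 q 280) and at a second place 18.8 kb before it (signal value 9.65, −log10 q 350). At that second place a BHLHE40 region of 37.8 and a GATA3 region of 4.71 had summits 17 bp apart. The strongest GATA3 region, 40.3, lay 10.9 kb before the start with a BHLHE40 region of 10.8. The window also reached ADRA2B, ASTL and STARD7, and 2 GATA3, 3 BHLHE40 and 6 H3K27ac summits were nearer to one of those records.

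The promoter sequences of DUSP1 and DUSP2 are shown because, among the 8 members with an entry in the RefSeq promoter table (GRCh38.p14), they were the ones holding the palindromic E-box CACGTG that BHLHE40 is known to bind. DUSP4 and DUSP5 have no entry. The search covered 300 bases around each first start, 250 before it and 50 after, on both strands, and 7.26% of 35116 promoter windows of that length hold CACGTG. The 250 bases before the start are printed 5′ to 3′ in the direction of the gene, and capitals mark CACGTG and the cAMP response element TGACGTCA.
DUSP1 (chr5:172771196-172771445, minus strand): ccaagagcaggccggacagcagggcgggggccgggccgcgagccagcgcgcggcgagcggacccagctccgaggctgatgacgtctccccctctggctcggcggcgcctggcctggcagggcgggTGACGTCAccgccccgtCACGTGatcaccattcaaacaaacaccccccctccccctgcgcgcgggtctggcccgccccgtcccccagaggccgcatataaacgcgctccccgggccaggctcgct
DUSP2 (chr2:96145441-96145690, minus strand): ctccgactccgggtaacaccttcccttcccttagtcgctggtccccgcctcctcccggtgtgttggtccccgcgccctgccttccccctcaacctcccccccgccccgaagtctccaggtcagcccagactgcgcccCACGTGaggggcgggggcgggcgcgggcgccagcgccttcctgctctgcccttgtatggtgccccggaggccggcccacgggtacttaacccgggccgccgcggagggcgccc
In DUSP1 the E-box begins 108 bases before the start, 71 bp from the BHLHE40 summit, and a TGACGTCA, which 1.85% of promoter windows hold, begins 125 bases before the start. In DUSP2 the E-box begins 113 bases before the start and lies inside both the GATA3 region (128 bp from its summit) and the wide BHLHE40 region, whose summit is 2813 bp away. None of the 8 first-start windows held a GATA word, searched as AGATAA and as TGATAA, or as AGATAG and as TGATAG, on either strand (25% of all promoter windows hold at least 1 of these), nor the ETS word CCGGAAGT (4.14%). These matches are letters in a window and were not tested as binding sites.

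DUSP4 (chromosome 8, 29333064 to 29350684), a nuclear phosphatase of ERK and JNK, was sparse: 1 GATA3 region, 1 BHLHE40 region and 3 H3K27ac regions. The BHLHE40 region (29350414 to 29350793, signal value 8.19) had its summit 70 bp inside the higher-coordinate end of the record, and the only strong H3K27ac region (signal value 7.32) had its summit 394 bp outside the same end. The 2 regions did not overlap. The GATA3 region (signal value 13.3) was 15.9 kb beyond the opposite end and overlapped neither other list. No place in this window held 2 of the lists together.

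DUSP5 (chromosome 10, 110497907 to 110511533), a nuclear phosphatase selective for ERK, was dense by contrast, with 7 GATA3, 10 BHLHE40 and 15 H3K27ac regions and no other protein-coding record nearby. At the lower-coordinate end a BHLHE40 region of 32.5 (110497057 to 110497998) had its summit 113 bp outside the record and overlapped a GATA3 region of 10.0 and a strong H3K27ac region of 7.49. Just past the other end, a BHLHE40 region of 15.8, a GATA3 region of 15.3 and the strongest H3K27ac region of the window, 8.11, came together. Farther out in that direction lay a cluster with the strongest factor regions. BHLHE40 had a region of 48.6 there (rank 409 of 26205), with its summit 24.8 kb outside the record. GATA3 had 26.99, with its summit 23.2 kb outside the record and 10 bp from that of a BHLHE40 region of 12.3. In all, 6 of the 7 GATA3 regions overlapped a BHLHE40 region.

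DUSP6 (chromosome 12, 89347235 to 89352501), the cytoplasmic phosphatase specific for ERK and a common readout of ERK activity, had 5 GATA3, 3 BHLHE40 and 11 H3K27ac regions. All 3 lists met at its start. The GATA3 region had a signal value of 12.0 and the BHLHE40 region 19.2, with summits 163 bp and 173 bp before the start and so 10 bp apart, and the H3K27ac region had 4.91. That was the strongest BHLHE40 region of the window. GATA3 and H3K27ac had slightly higher values elsewhere: the strongest GATA3 region (13.2) lay 29.7 kb before the start, nearer to POC1B, and the strongest H3K27ac region (5.25) 46.0 kb before it and 3.01 kb from POC1B. A read-through record, POC1B-DUSP6, covers the upstream interval and was left aside when the nearest record was named.

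DUSP10 (chromosome 1, 221701424 to 221742089), which inactivates p38 and JNK rather than ERK, had 12 GATA3, 9 BHLHE40 and 18 H3K27ac regions. Of the H3K27ac regions 13 were strong, the joint highest number with SPRED2, and their signal values ran from 2.42 to 12.7. Its window held no other protein-coding record. The strongest factor regions lay deep inside the gene, 33.9 kb from the first start. There GATA3 spanned 221707553 to 221708897 at 91.4 (rank 341 of 29009) and BHLHE40 spanned 221707803 to 221709460 at 57.4 (rank 248 of 26205), with summits 31 bp apart over an H3K27ac region of 5.07. As strong a GATA3 region was found in the windows of 2.45% of protein-coding genes and as strong a BHLHE40 region in 2.10%. Further GATA3 regions inside the gene reached 39.4 and 30.4. At the first start the order was different. The strongest H3K27ac region of all 10 genes by signal value was there (221742339 to 221743169, signal value 12.7). Its −log10 q of 128 was below the 280 and 350 of the 2 DUSP2 regions described above. A BHLHE40 region of 11.4 and a weak GATA3 region of 7.09 lay there too, with summits 325 bp apart. As strong an H3K27ac region was found in the windows of 14.7% of protein-coding genes, so no member reached the 90th percentile of 14.2. The median of the members' strongest H3K27ac values was 7.57, and that of all genes 7.66. H3K27ac covered 6.99% of the DUSP10 window, the highest of the members, against a median of 2.29% over all protein-coding genes.

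**Figure D3:**
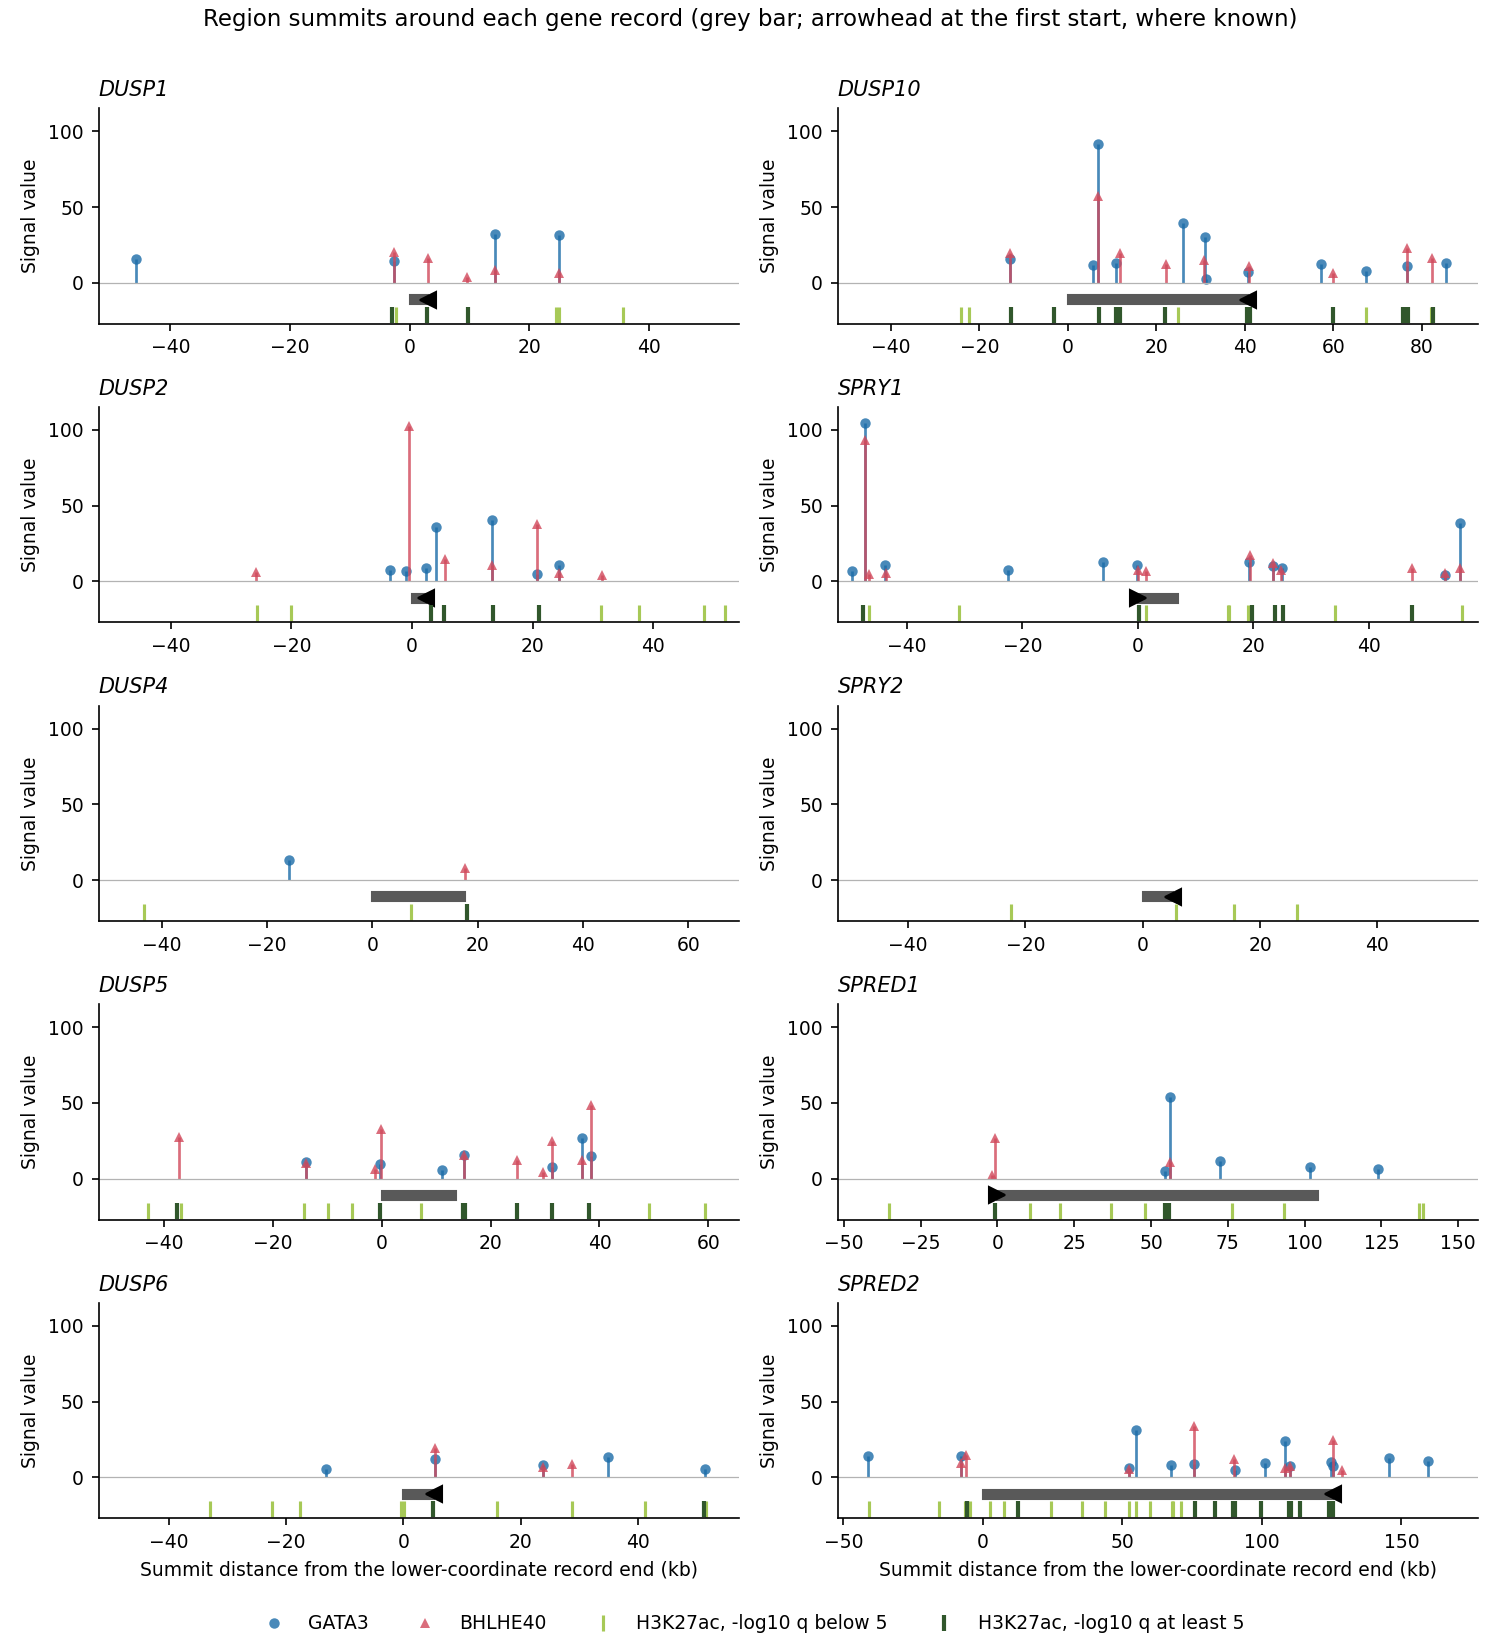
Summits of GATA3 (circles) and BHLHE40 (triangles) by signal value (y axis, each read within its own list) against distance from the lower-coordinate end of the gene record in kb (x axis), with H3K27ac summits as ticks below. The tallest pairs stand 47.2 kb before SPRY1 and inside DUSP10, and DUSP2 has its tall BHLHE40 region at the gene.

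Among the inhibitors that act above RAF, the Sprouty genes stood at opposite ends of the set. SPRY1 (chromosome 4, 123396795 to 123403760) had 11 GATA3, 11 BHLHE40 and 14 H3K27ac regions, and no other protein-coding record lay within its window. With the 50 kb flank, its density of 10.3 per 100 kb in both factor lists was the highest of the 10 genes. Only 0.204% of protein-coding genes had as dense a GATA3 window and 0.474% as dense a BHLHE40 window. The strongest pair of the whole set was 47.2 kb before the first start. Its GATA3 region (123349085 to 123351060) had a signal value of 105 (rank 217 of 29009), and its BHLHE40 region (123349088 to 123349912) 93.4 (rank 57 of 26205), with summits 7 bp apart. The stronger of 2 H3K27ac regions at the pair had 4.60. The pair overlaps the record of the long noncoding RNA LOC124900774, and it is 30.1 kb from AFG2A, so AFG2A and not SPRY1 is the nearest protein-coding record. At the SPRY1 start itself GATA3 (10.6) and BHLHE40 (7.66) were far weaker, with summits 75 bp apart, over the strongest H3K27ac region of the window (6.69). A second BHLHE40 region near a listed start of SPRY1 had 6.86. A run of 3 shared places followed between 19.3 kb and 25.0 kb after the first start, with GATA3 values of 12.8, 10.3 and 8.72 and BHLHE40 values of 17.3, 12.5 and 7.78.

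SPRY2 (chromosome 13, 80335976 to 80341126) had no GATA3 and no BHLHE40 region within 50 kb, as was the case for 4792 and 4002 of the 20050 genes. None of its 4 H3K27ac regions was strong: they had signal values of 3.56 to 3.82 and a highest −log10 q of 3.86. The region nearest the gene had its summit 493 bp before the first start, and none overlapped the record. The 250 bases before the first start of SPRY1, where both factors were listed, and of SPRY2, where neither was, are shown for comparison. No base is in capitals because none of the searched words occurs.
SPRY1 (chr4:123396545-123396794, plus strand): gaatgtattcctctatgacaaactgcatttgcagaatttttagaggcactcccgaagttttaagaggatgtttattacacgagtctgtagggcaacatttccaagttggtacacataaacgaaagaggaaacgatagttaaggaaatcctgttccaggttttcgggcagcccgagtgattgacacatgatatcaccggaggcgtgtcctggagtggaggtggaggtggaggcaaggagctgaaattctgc
SPRY2 (chr13:80341127-80341376, minus strand): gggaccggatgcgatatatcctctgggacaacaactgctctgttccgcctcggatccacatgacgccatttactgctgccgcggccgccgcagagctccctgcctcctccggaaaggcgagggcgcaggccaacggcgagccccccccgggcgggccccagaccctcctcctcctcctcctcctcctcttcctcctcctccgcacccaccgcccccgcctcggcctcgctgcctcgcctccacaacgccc
The SPRY2 stretch was richer in G and C (70.4%) than that of SPRY1 (45.6%).

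SPRED1 (chromosome 15, 38252836 to 38357249), whose protein brings neurofibromin to the membrane to switch off RAS, had its factors in different places. At the start there was BHLHE40 (38251514 to 38253069, signal value 26.96, its strongest) with a strong H3K27ac region of 6.77 and no GATA3. GATA3 was listed 56.2 kb inside the gene (38307988 to 38309455, signal value 53.8, rank 1275 of 29009), where a BHLHE40 region of 11.1 had its summit 10 bp away. That was the only place in the 204 kb window where the 2 factors met, out of 5 GATA3 and 3 BHLHE40 regions. Both densities were lower than in most members, and BHLHE40 (1.47 per 100 kb) was below the median of all genes.

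SPRED2 (chromosome 2, 65307175 to 65432599), a close relative that also binds neurofibromin, had 14 GATA3, 9 BHLHE40 and 28 H3K27ac regions. Of these, 9 GATA3, 5 BHLHE40 and 22 H3K27ac summits lay inside the 125 kb record. At the first start a BHLHE40 region 3123 bp wide (65430013 to 65433135, signal value 24.4) covered 2 GATA3 regions of 10.4 and 7.57 and 3 strong H3K27ac regions. The strongest BHLHE40 region (33.6) and the strongest H3K27ac region (7.81) lay together inside the gene, 49.6 kb and 49.3 kb from the first start, over a GATA3 region of 9.13. The strongest GATA3 region (31.0) was also inside the gene, 4727 bp from a second listed start, and overlapped no BHLHE40 region. Over the 9 members with both factors, the strongest GATA3 and the strongest BHLHE40 region overlapped in 2, SPRY1 and DUSP10, where 37.1% of 14058 genes with both factors had such an overlap. In the other 7 they lay in different places.

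Across the members, BHLHE40 and H3K27ac were at more starts than GATA3, as over all protein-coding genes. Each list, GATA3 included, was at a larger share of member starts than of the starts of all genes. Of the 8 members with a listed start, 7 had a BHLHE40 region within 1 kb of it (49.6% of 15842 protein-coding genes), 5 a GATA3 region (23.7%), 8 an H3K27ac region (57.6%) and 7 a strong one (51.3%). The 5 with GATA3 were DUSP2, DUSP6, DUSP10, SPRY1 and SPRED2, and each of them had all 3 lists at the start, as did 21.9% of genes. DUSP1 and SPRED1 had BHLHE40 and H3K27ac without GATA3, and SPRY2 only an H3K27ac region that was not strong. Around either end of the record, which takes in DUSP4 and DUSP5, BHLHE40 was listed at 9 of the 10 members (46.9% of all genes), GATA3 at 6 (22.8%), H3K27ac at 10 (56.3%) and strong H3K27ac at 9 (48.1%). With so few genes these counts are a description. In none of the 7 members with a listed start and a GATA3 region was the strongest GATA3 region the one at the start, which it was in 10.3% of 12264 such genes. The strongest BHLHE40 region was at the start in 3 of 7 (DUSP2, DUSP6 and SPRED1, against 26.4% of 12853 genes) and the strongest H3K27ac region in 3 of 8 (DUSP10, SPRY1 and SPRED1, against 29.7% of 14834 genes).

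The rest of the pathway was read from lists of other genes. The 24 genes listed for the MAPK cascades run from adaptor to kinase. They also take in genes that restrain RAS (NF1, RASA1 and RASA2), so the list is not one of activators alone. Of the 24 genes, 20 have a listed start. BHLHE40 was at 17 of these (49.6% of all protein-coding genes), H3K27ac at 19 (57.6%) and GATA3 at 5 (23.7%). The GATA3 count was near the share of all genes. The 5 were RASA1 (a RAS GTPase-activating protein), MAPK14 (p38), MAP2K1 (MEK), ARAF and MAP2K6. KSR1, a scaffold for RAF and MEK, had no region of any list at its start. The median density in the windows of the 24 genes was 1.81 for GATA3 and 2.31 for BHLHE40 per 100 kb, against 5.46 and 4.42 for the 10 feedback genes. Of 6 other feedback genes, 5 had BHLHE40 at the start (49.6% of all genes), 4 H3K27ac (57.6%) and 1, SPRY4, GATA3 (23.7%). DUSP9 had none of the 3. The median density of these 6 genes was 0.436 for GATA3 and 2.27 for BHLHE40. The differences between these lists were not tested. The members and the lists were chosen with earlier results of these data known, so the differences may reflect that choice.

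GATA3 and BHLHE40 regions of the members often coincided. Of the 66 GATA3 regions 41 overlapped a BHLHE40 region (62.1%, 95% Wilson interval 50.1% to 72.9%), where the share over the whole GATA3 list was 48.7%, and 38 of the 58 BHLHE40 regions overlapped a GATA3 region (65.5%, interval 52.7% to 76.4%), where the share over its list was 53.0%. The second interval includes the share of its whole list, and the lower end of the first lies close to its own. Of the 41 shared GATA3 regions, 4 overlapped a single BHLHE40 region at DUSP2. Intervals cover counting error only, and regions of 1 gene are not independent. Sharing was uneven: all 7 GATA3 regions of DUSP2, 6 of 7 at DUSP5, 8 of 11 at SPRY1 and 8 of 14 at SPRED2 were shared, against 1 of 5 at SPRED1 and 0 of 1 at DUSP4. The median summit distance in the 41 shared GATA3 regions was 50 bp (interval 17 to 75 bp from the order of the values), against 35 bp over 14123 shared regions of the list. It was at most 10 bp in 8 of them and over 100 bp in 11. The largest distances, 551 to 4456 bp, were at DUSP2, at the 4 GATA3 regions under its wide BHLHE40 region, together with 918 bp at DUSP10 and 665 bp at SPRED2.

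**Figure D4:**
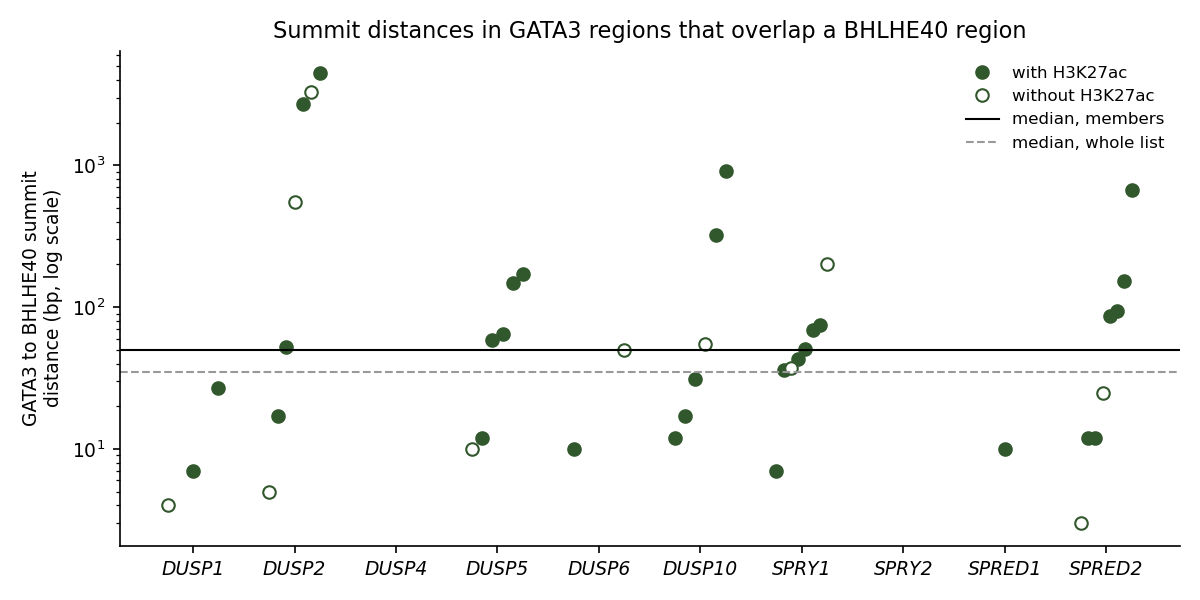
Distance in bp (y axis, log scale) from the summit of each of the 41 shared GATA3 regions to the nearest summit of an overlapping BHLHE40 region, by member (x axis), filled where H3K27ac overlapped. The median of 50 bp over the members and that of 35 bp over the whole list are drawn, and the 3 points above 1000 bp belong to DUSP2.

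H3K27ac lay more often on GATA3 regions that were shared, in the members as in the whole list. Where GATA3 shared its place with BHLHE40, 30 of 41 regions lay on H3K27ac (73.2%, interval 58.1% to 84.3%). Where it did not, 5 of 25 did (20%, interval 8.86% to 39.1%). Over the whole GATA3 list these shares were 77.4% and 22.3%. For BHLHE40 the corresponding counts were 29 of 38 shared (76.3%, interval 60.8% to 87.0%) and 15 of 20 unshared (75%, interval 53.1% to 88.8%). Over the whole BHLHE40 list the shares were nearly the same, 77.6% and 75.1%. Read the other way, 45 of the 52 strong H3K27ac regions of the members carried at least 1 of the factors (86.5%, interval 74.7% to 93.3%), where the share over all strong regions was 70.0%. The member windows also had higher median densities of both factors than those of all genes. DUSP10 and SPRED2 held 13 of the 52 regions each, and regions of 1 gene are not independent. Whether the share goes beyond that density was not tested. By signal value, of the 66 GATA3 regions 7 (10.6%) were in the top 10% of their list, and of the 58 BHLHE40 regions 12 (20.7%).

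The number of regions depends on the 50 kb border: with 100 kb on each side the GATA3 regions numbered 87, the BHLHE40 regions 80 and the H3K27ac regions 205. With 25 kb they numbered 53, 48 and 90. The pair 47.2 kb before SPRY1 lies close to the 50 kb border and outside a 25 kb one. A 25 kb flank keeps all 7 GATA3 regions of DUSP2 and of DUSP5 but drops several of the 11 of SPRY1. The first rank of SPRY1 by density therefore holds for the 50 kb flank only. The outermost regions inside the 50 kb border were a GATA3 region 49.4 kb from SPRY1 with a signal value of 6.74 and a BHLHE40 region 48.7 kb from SPRY1 with 8.94. The first outside were a GATA3 region 53.3 kb from DUSP10 with 4.61 and a BHLHE40 region 52.2 kb from DUSP10 with 8.22.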

How the data were processed

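ChIP-seq peak lists of stimulated Jurkat cells with a control lentivirus were used, 1 list per antibody and group of 2 samples. Per the submitters' processing notes, bcl2fastq 2.20, MACS2 and the build hg38 were used, and the aligner and filters are not given in the sources used here. Per the names and values of the deposited lists, the factor lists were filtered at an IDR of 0.05 and the H3K27ac list was called on pooled samples. The deposited score of a factor region runs from 540 to 1000, and 830 corresponds to an IDR of 0.01. The deposited signal value and −log10 q are the authors' own per region. What the signal is relative to is not stated, and read depth is unknown.

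Lines were matched to RefSeq gene records of GRCh38.p14 by overlap of at least 1 bp, and no lines of a list overlapped each other. Starts and promoter sequences came from the RefSeq promoter table of the same build, which had 8 of the 10 members. DUSP4 and DUSP5 were therefore placed by their record ends. Coordinates are 1-based, and exons and introns were not told apart. The same counts were made for all 20050 protein-coding records. No test was run, since no list gives a value per sample. Named were all 10 members, the strongest region of each list in each window, the factor regions at starts, and the pathway genes that lacked all 3 lists at the start. Other regions and pathway genes were named after their values were seen. The members and gene lists were chosen with earlier results of these data known. The overlap functions were tested on simulated data. The alternatives changed the flank, the overlap, the score and the q threshold. The versions were matplotlib 3.10.9, scipy 1.17.1, pandas 2.3.3, numpy 2.4.6 and Python 3.11.15.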

Additional observations from a re-analysis of the deposited data

How the results depend on the processing

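Over 12 results, 41 alternatives were computed, of which 3, on record ends in place of starts, were chosen after seeing the data. In 35 the value stayed within 1.5 times (counts and covered bases) or within its 95% interval (shares and the summit distance). Those intervals cover counting error only and are wide, and the alternatives largely reuse the same regions. Staying inside an interval is therefore a loose criterion and does not measure how far processing matters. The 6 exceptions all involved H3K27ac. The 122 H3K27ac regions became 205 with a flank of 100 kb and 52 at a −log10 q of at least 5, and the 49693 bases they covered became 32381 at that threshold. The share of GATA3 regions on H3K27ac, 53.0% by any overlap, was 28.8% when the GATA3 summit had to lie inside the H3K27ac region. For BHLHE40 it went from 75.9% to 48.3%, and to 60.3% with strong H3K27ac regions. Fewer regions or a narrower overlap enter by construction. GATA3 counts ranged from 53 to 87 and BHLHE40 counts from 45 to 80 over their alternatives. No paired analysis was possible because a group's 2 samples are merged in 1 list, and leaving out a replicate could not be done for the same reason. Depth is unknown, so a region missing from a list, as at SPRY2, was not detected and cannot be called absent.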

Other observations

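Among the feedback genes outside the 10 members, DUSP16, a phosphatase of JNK and p38, had 7 GATA3 and 8 BHLHE40 regions in its window, with strongest signal values of 48.2 and 15.0, and BHLHE40 but no GATA3 at its start. SPRY4 had 1 GATA3 region of 35.2 and 2 BHLHE40 regions, the stronger of 39.1, and both factors and strong H3K27ac at its start. DUSP7, a cytoplasmic ERK phosphatase like DUSP6, had 3 BHLHE40 regions, the strongest of 14.4, and no GATA3 region. DUSP9, the third phosphatase of that kind, had neither factor and 3 H3K27ac regions in its window.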
